A study of Mus musculus with 14 samples.

Results

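The olfactory receptor gene cluster of mouse chromosome 2 was examined for open chromatin in hippocampal neurons. It was taken as all regions of the deposited accessibility table that overlap 85 to 90 Mb of chromosome 2 in the mm9 build. This rule of position uses no measured value, but a region is listed only where reads led to its calling. How far groups high in the cluster decided which regions were called was not tested. There were 134 such regions, of 13892 on chromosome 2 and 191271 in all. ATAC-seq, a method in which a transposase inserts adapters into open DNA, had been run on neuronal nuclei sorted from hippocampus with antibodies to NeuN, Arc and GFP. All mice were labelled ArcCreERT2 x R26R-STOP-floxed-eYFP with the genotype +/+, so that a tamoxifen-activated Cre recombinase under Arc, a gene switched on by neuronal activity, turns on a yellow fluorescent reporter in cells active around the time of the drug. Every group had received 4-hydroxytamoxifen before contextual fear conditioning, in which a foot shock is paired with a place, on day 0.

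The 14 libraries formed 4 groups. Reactivated (n = 3) was recalled on day 5, and its replicates 1, 2 and 3 are labelled as collected on day 5, 6 and 7, so that day and library cannot be told apart within it. Late (n = 4) was collected on day 5 without recall. Early (n = 3) and Basal (n = 4) were both labelled as shocked and collected on day 0 without recall, and only their titles set them apart. The labels do not state which sorted nuclei each group holds, nor the sex or age of the mice. The design text speaks of 10 to 12 pooled mice for 10000 nuclei and of 3 biological replicates, while Late and Basal have 4 libraries each. The p-values below therefore measure the spread between libraries, part of which may be technical. The table names positions only, so the neuronal identity of the nuclei could not be checked against marker genes, and the name of the cluster rests on what is known of the mouse genome. In pooled nuclei, a change in how many nuclei are open at a site and a change in how open each nucleus is cannot be told apart.

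Olfactory receptors are odorant-binding G protein-coupled receptors and form the largest gene family of the mouse, arranged in clusters on many chromosomes. Each olfactory sensory neuron of the nose expresses a single receptor allele, while the other receptor genes are packed in heterochromatin marked by trimethylated lysines of histones H3 and H4. In those sensory neurons the LIM-homeodomain protein Lhx2 and the factor Ebf bind the enhancers and promoters of receptor genes. Hippocampal neurons are not known to express the family as a class.

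In the RefSeq gene order of the GRCm38.p6 build, which is not the build of the table, the block between Lrrc55 and Ptprj held 222 protein-coding Olfr genes, from Olfr987 to Olfr1274, and 3 others, the fatty acid desaturase relative Fads2b and the preferentially-expressed-antigen relatives Pramel7 and Pramel6. These are 20% of the 1110 protein-coding Olfr genes of the genome. Chromosome 2 as a whole held 377 Olfr entries, 287 protein-coding and 90 pseudogenes. RefSeq promoter windows of 300 bases were found for 186 of the 222 genes. Their median GC content was 32% (range 18.3% to 46.7%), against 52.7% over all 27025 promoters of the table. They held a median of 1 CpG dinucleotide, against 7 over all promoters, and 36% held none, against 5.78% of all. The homeodomain core TAATTA, which reads the same on both strands, was present in 46 of the 186 (24.7%, against 5.31% of all promoters), and CCCNNGGG, a core bound by Ebf factors that also reads the same on both strands, in 4 (2.15%, against 13.4%). TAATTA is made of A and T only, while CCCNNGGG fixes C and G only. The part of the low GC content in these shares was not tested. The first and the last promoter of the block with TAATTA, and 1 of the 4 with CCCNNGGG, are printed as examples. Their coordinates are GRCm38.p6 and cannot be set beside the mm9 positions used elsewhere, and capitals mark the motif.
Olfr992, chr2:85400482-85400781, minus strand: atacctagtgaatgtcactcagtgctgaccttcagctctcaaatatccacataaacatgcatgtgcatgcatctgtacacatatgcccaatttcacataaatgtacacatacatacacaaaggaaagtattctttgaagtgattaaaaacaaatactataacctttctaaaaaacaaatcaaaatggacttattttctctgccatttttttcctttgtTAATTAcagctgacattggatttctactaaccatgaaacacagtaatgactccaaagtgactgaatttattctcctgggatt
Olfr1565, chr2:90321972-90322271, plus strand: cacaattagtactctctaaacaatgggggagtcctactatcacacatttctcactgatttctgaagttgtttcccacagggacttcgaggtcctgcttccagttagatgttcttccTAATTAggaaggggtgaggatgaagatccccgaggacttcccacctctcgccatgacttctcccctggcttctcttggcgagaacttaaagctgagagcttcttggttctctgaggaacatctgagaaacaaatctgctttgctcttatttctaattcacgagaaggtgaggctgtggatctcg
Olfr1093, chr2:86782295-86782594, plus strand: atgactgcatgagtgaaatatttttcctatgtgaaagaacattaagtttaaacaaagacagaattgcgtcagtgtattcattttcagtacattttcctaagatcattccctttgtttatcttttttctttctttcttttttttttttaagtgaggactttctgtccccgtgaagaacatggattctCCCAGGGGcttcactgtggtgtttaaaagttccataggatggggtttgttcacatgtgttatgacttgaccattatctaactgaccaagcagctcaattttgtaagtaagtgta
The Olfr992 window had a GC content of 33.3% and no CpG, the Olfr1093 window 35% and 2 CpG. The Olfr1565 window, with 46.7% and 6 CpG, had the highest GC content of the 186 and so stands apart from the AT-rich, CpG-poor majority. The Olfr992 window ends in an atg followed by an open reading frame, downstream of its TAATTA. How much of each window is transcribed or coding sequence was not analysed here. A match is a string of letters and does not show binding. Which of the 134 regions lie at such promoters was not analysed here, because no mm9 gene annotation or sequence was used.

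The deposited values are RPKM, counts of reads divided by region length in kilobases and by the read total of the library. All of them were whole reads once scaled back, with totals of 46134253 to 47375212 reads in the 4 Late libraries and 54257222 to 56251676 in the 10 others. The lower total is thus that of the group in which the cluster stood highest relative to its chromosome, and the part of depth in the results was not tested. The share of reads that fell in regions also differed between libraries. It was 21.3% to 24.0% in Reactivated, 18.4% to 20.02% in Late, 13.8% to 27.8% in Early and 13.2% to 19.3% in Basal libraries. Early 2 (27.8%) stood apart from Early 1 (13.8%) and Early 3 (18.1%), and the 4 Late libraries lay close together. The median region of the genome was itself higher than in Basal by 0.39 in Reactivated, 0.28 in Late and 0.23 in Early on the log2(RPKM + 0.5) scale. With the share as a covariate these medians were 0.028 in Reactivated, 0.11 in Late and 0.055 in Early. The cluster is therefore read below against the rest of chromosome 2 or the genome. The part of the share of reads in regions in each result was tested only as a covariate, with the values given below.

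The cluster was sparse in accessible regions and those present were low. It held 26.8 regions per Mb. The other 36 windows of 5 Mb on chromosome 2 held a median of 405.5 regions (59 to 628), and 2 of them held fewer than 134. The 134 regions covered 70507 bases, 1.41% of the window, against a median of 257291.5 bases in the other windows. Their median length was 426 bases (132 to 1750), against 534 bases elsewhere on the chromosome. The median gap between neighbours was 20353 bases, against 6749 elsewhere, and the longest ran from 89021089 to 89357660, 336571 bases without a region. Mean RPKM over the 14 libraries ranged from 0.0348 to 3.80 with a median of 1.08, against a median of 1.31 and a highest value of 54.7 among other regions of the chromosome. There were 11 regions above 2 RPKM and 51 below 1 RPKM. No value was 0, and 27 regions stood at 1 read in at least 1 library, 3 of them in all 14. Over all regions, 2.27% (Late 1) to 3.11% (Basal 3) of a library's values stood at 1 read. Whether a value of 1 is a counted read or stands for none was not tested. The filter of the fit, which left out the lowest 10% of regions by mean RPKM, left out 32 of the 134 (23.9%), against 9.08% of other regions of chromosome 2.

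Relative to its chromosome, the cluster had its lowest mean level in Basal libraries, a low level that overlapped with Basal in Reactivated libraries, and about the level of the chromosome in Late and Early libraries. The median RPKM over the 134 regions was 0.898, 1.06 and 1.15 in the Reactivated libraries, 1.43, 1.31, 1.52 and 1.31 in the Late libraries, 0.997, 1.74 and 1.06 in the Early libraries and 0.533, 0.631, 0.543 and 0.588 in the Basal libraries. All 10 other libraries lay above all 4 Basal libraries. The median over the other 13758 regions of chromosome 2 averaged 1.45 ± 0.063 RPKM in Reactivated, 1.38 ± 0.058 in Late, 1.31 ± 0.38 in Early and 1.02 ± 0.13 in Basal (SD over libraries). The cluster median divided by that of the rest of the chromosome was 0.714 ± 0.098 in Reactivated, 1.01 ± 0.076 in Late, 0.961 ± 0.084 in Early and 0.571 ± 0.088 in Basal. Reactivated lay below Late and Early without overlap, and its lowest library (0.601) lay below the highest Basal library (0.656).

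**Figure D1:**
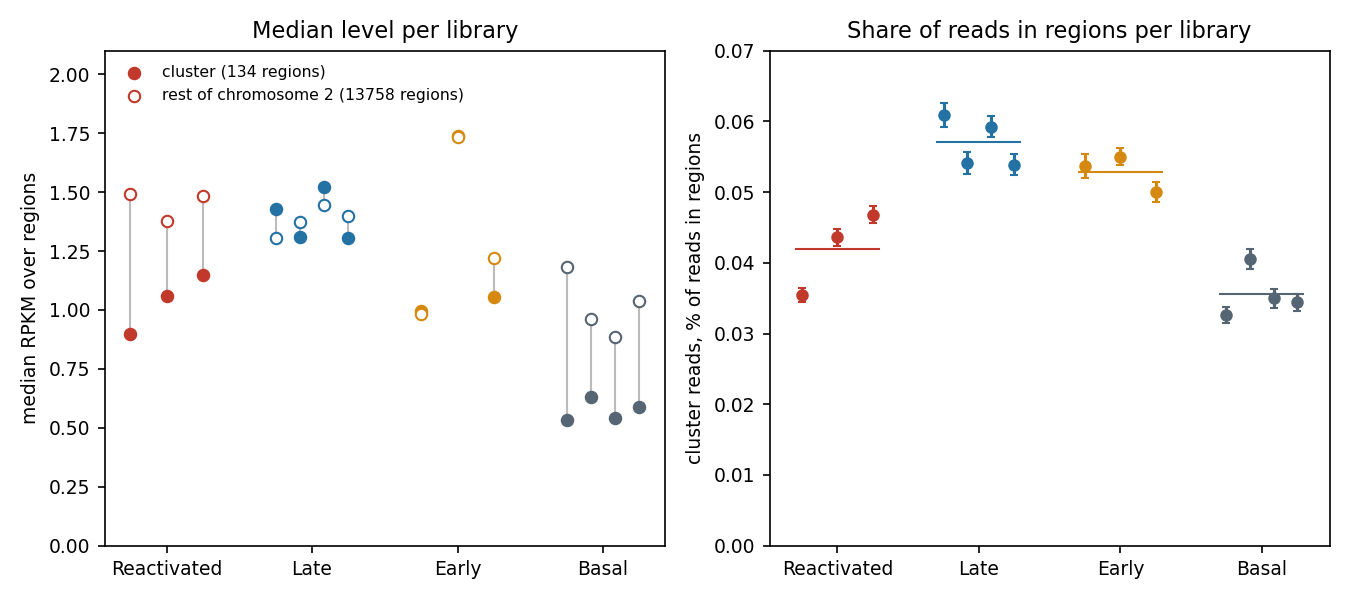
Left, the median RPKM per library over the 134 cluster regions (filled) and over the other 13758 regions of chromosome 2 (open), with both joined by a line. Right, the cluster's reads as a percentage of all reads in regions, with 95% Wilson intervals and the group mean as a line; Late libraries lie at 0.0539% to 0.0609% and Basal libraries at 0.0326% to 0.0405%.

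The share of in-region reads that fell in the cluster was 0.0420% ± 0.0059 in Reactivated, 0.0570% ± 0.0036 in Late, 0.0529% ± 0.0026 in Early and 0.0356% ± 0.0034 in Basal (SD). The counts behind it were 2498 to 8290 reads per library, and the 95% Wilson interval of a library, which covers counting error only, was at its widest 0.0520% to 0.0553% for Early 1. Late exceeded Basal by a factor of 1.60 and Early exceeded Basal by 1.48, while Reactivated was 0.736 times Late. In each of these pairs the groups did not overlap. Exact 2-sided permutation tests gave p = 0.0286 for Late against Basal and 0.0571 both for Early against Basal and for Reactivated against Late. Each of these is the smallest p its group sizes allow, and adjusted over the 6 comparisons each became 0.114.

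Set among 5 Mb windows, the cluster was the lowest of the 37 windows of chromosome 2 in all 3 Reactivated libraries. A window's relative level is the median log2(RPKM + 0.5) of its tested regions minus the library's median over the 532 windows of the genome with at least 20 tested regions. For the cluster it was -0.23 ± 0.17 in Reactivated, 0.085 ± 0.061 in Late, 0.056 ± 0.070 in Early and -0.36 ± 0.11 in Basal (SD). In Basal libraries the cluster ranked 1 or 2 from the lowest of the 37 windows. In Late libraries its rank was between 18 and 36, and in Early libraries between 14 and 27, in the middle or upper part of the chromosome.

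**Figure D2:**
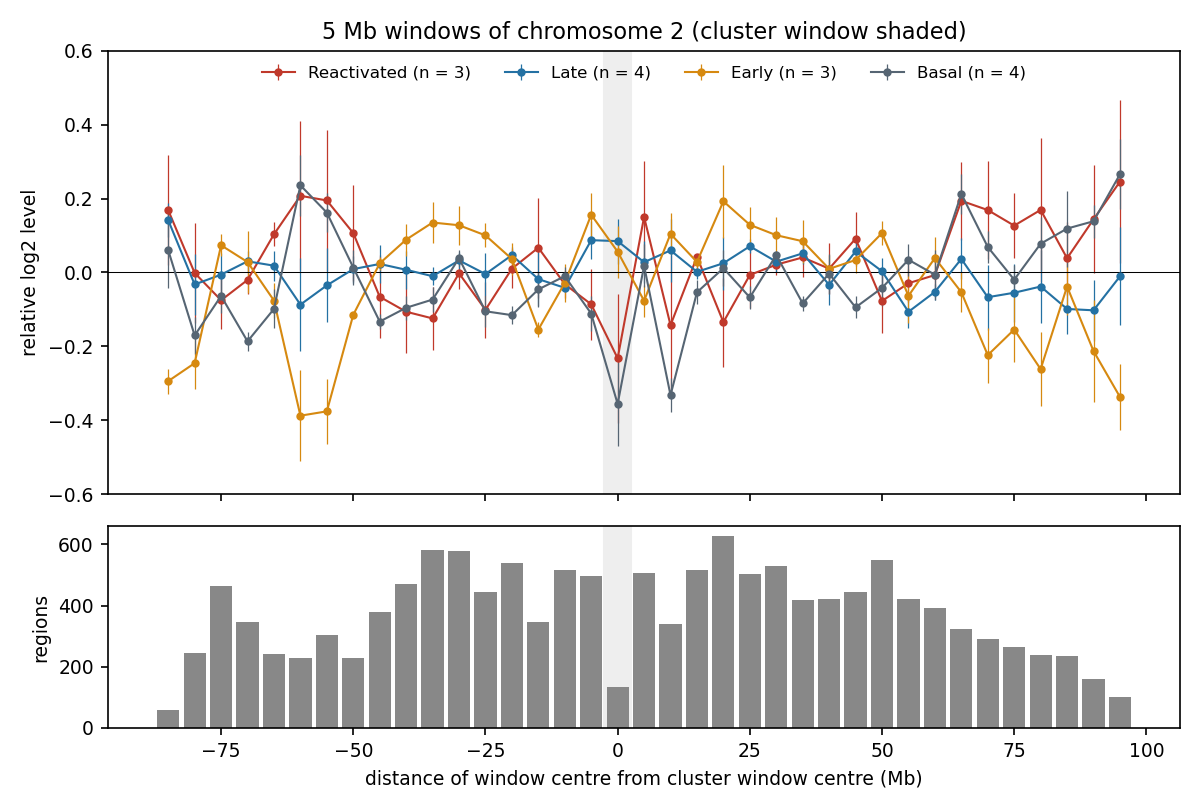
Above, the relative log2 level of each 5 Mb window of chromosome 2 against its distance from the cluster window, as group means with SD over libraries; the shaded cluster dips to -0.23 in Reactivated and -0.36 in Basal and stands at 0.085 in Late and 0.056 in Early. Below, the number of regions per window, 134 in the cluster.

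In the limma fit over all windows, with Benjamini-Hochberg adjustment over the 532, the cluster was higher in Late than in Basal by 0.44 ± 0.076 (log2, SE; adjusted p = 0.000950). Windows called higher made up 19.5% of all and windows called lower 14.8%. The cluster had the largest rise of the 37 windows of chromosome 2 and rank 4 among the 501 autosomal windows, and 13 of the 31 windows of chromosome X lay above it. It was higher in Early than in Basal by 0.41 ± 0.082 (adjusted p = 0.000974), where 32.9% of windows were called higher and 27.8% lower. The cluster ranked 2 on chromosome 2 and 4 among autosomal windows there, and 9 of the 31 windows of chromosome X lay above it. Both comparisons use the same Basal libraries. With the mean of the 4 Late libraries in place of 4 samples, Late against Basal kept its size of 0.44 and missed the threshold (adjusted p = 0.159). With the in-region read share as a covariate the differences were 0.47 for Late (adjusted p = 0.00139) and 0.45 for Early (adjusted p = 0.00134) against Basal, by limma.

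Reactivated against Late gave -0.32 ± 0.082. The cluster window had the lowest value of the 501 autosomal windows and the second lowest of all 532, but its adjusted p was 0.0595 (unadjusted p = 0.00168), and 0 of the 532 windows (0%) passed in either direction. The adjusted p was under the threshold without the filter on low values (0.0429), from summed reads over summed length (0.0358) and without Reactivated 3 (0.0301). It was above it in all other alternatives, among them 0.781 without centring, 0.199 without Late 1, 0.152 without Late 3 and 0.136 with a replicate block. With Late averaged to 1 sample, the difference kept its size of -0.32. Without Reactivated 1, the lowest library at -0.43, the difference was -0.22 (adjusted p = 0.297). Reactivated was lower than Early by 0.29 on the same scale (-0.29 ± 0.088, adjusted p = 0.00919), where 34.8% of windows were called lower and 36.5% higher. Without the centring on the library's median this was -0.17 with an adjusted p of 0.563. Reactivated against Basal gave 0.12 ± 0.082 (adjusted p = 0.260, 11.7% of windows called higher and 9.4% lower), and Late against Early 0.029 ± 0.082 (adjusted p = 0.785, 20.1% higher and 15.2% lower). Neither passed the threshold. Exact permutation tests of the relative level gave p = 0.0571 for Reactivated against Late, 0.1 for Reactivated against Early, 0.286 for Reactivated against Basal, 0.629 for Late against Early, 0.0286 for Late against Basal and 0.0571 for Early against Basal. Adjusted over the 6, none was under 0.114.

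**Figure D3:**
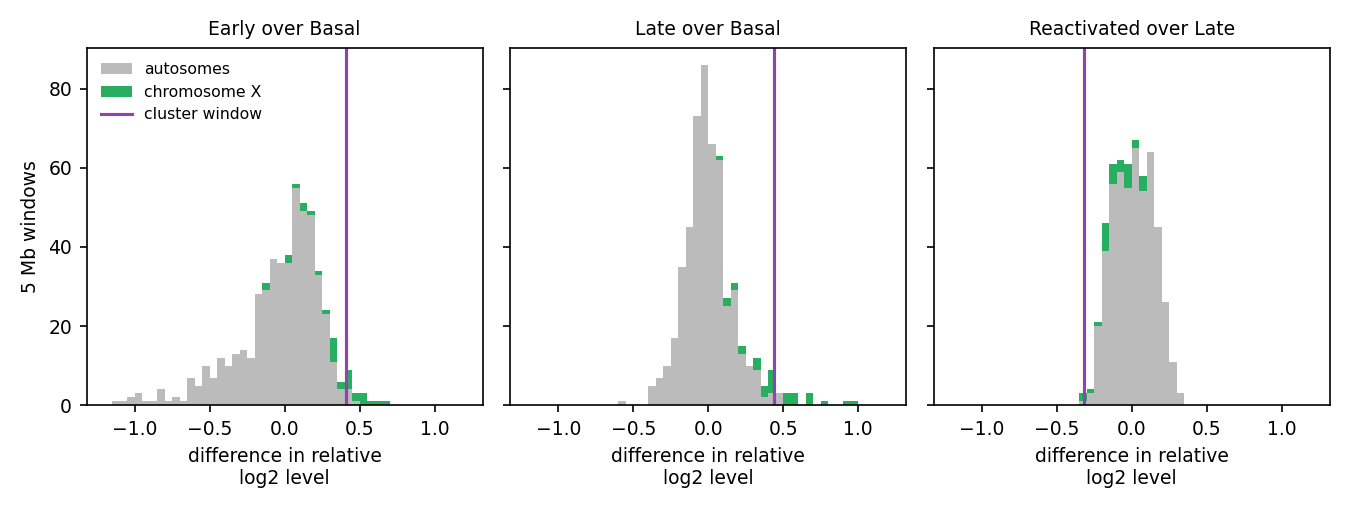
Histograms of the difference in relative log2 level over the 532 windows of the genome, autosomes in grey and chromosome X in green, with the cluster window as a line. The line stands at 0.41 for Early over Basal, 0.44 for Late over Basal and -0.32 for Reactivated over Late.

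The windows most like the cluster moved with it in some cases and not in others. By number of regions the nearest on chromosome 2 were those starting at 175, 180 and 0 Mb, with 159, 100 and 59 regions. In Early against Basal they gave -0.35, -0.60 and -0.35, each past the threshold (adjusted p of 0.00111, 0.000165 and 0.000483, limma), opposite to the cluster. By level over all libraries the nearest were those starting at 5, 95 and 15 Mb. The 5 Mb window gave -0.075 in Early against Basal (adjusted p = 0.345), 0.14 in Late against Basal (adjusted p = 0.108) and 0.031 in Reactivated against Late (adjusted p = 0.739), none past the threshold. The 15 Mb window gave 0.21 in Early and 0.22 in Late against Basal, smaller than the cluster but both past the threshold (adjusted p = 0.000810 and 0.00122), and -0.050 in Reactivated against Late (adjusted p = 0.347). The 95 Mb window gave 0.44 in Early against Basal (adjusted p = 0.000382), 0.39 in Late against Basal (adjusted p = 0.00122) and -0.20 in Reactivated against Late (adjusted p = 0.0819), values close to those of the cluster, with 340 regions. It shows in the plot of windows as the other Basal low, 10 Mb to the right of the cluster. The 57 windows of the genome with at most 134 regions had a median of -0.12 in Early against Basal and 0.081 in Late against Basal. Over the 532 windows, change correlated with level at a Spearman value of -0.32 in Early against Basal and -0.48 in Late against Basal. It was 0.29 in Reactivated against Late. Windows of low level thus tended to rise more over Basal. The cluster had the lowest level on chromosome 2 (0.762), nearly shared by the window starting at 5 Mb (0.767), which did not pass the threshold against Basal in Early or Late. The part of this trend in the cluster's differences was not tested.

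Region by region, the cluster's rise over Basal was spread over many regions rather than a few. In Late against Basal 60 of the 102 tested regions rose and 2 fell, while over all 172143 tested regions 23.9% rose and 6.03% fell (limma, adjusted p under 0.05 over all regions). The rises were 0.54 to 1.85 on the log2(RPKM + 0.5) scale, which understates changes of low values, and the median over the 102 was 0.73, against 0.28 over all tested regions. Without the filter, so that every region of the cluster is counted, 74 of 134 rose and 2 fell, against 23.1% and 5.35% of all regions. In RPKM, 78 of the 134 were higher in every Late library than in every Basal library and 2 were lower in every one, against 30.5% and 5.83% of all regions. The ratio of group means had a median of 2.14 over the 134 and 1.31 over all regions, and 115 of the 134 had the higher mean in Late. The split depended on the scaling. With values scaled by the median of ratios 43 of the 102 were higher and 6 lower, against 14.6% and 16.4% of all tested regions, and with quantile normalization 44 and 5, against 16.6% and 15.3%. With Late averaged to 1 sample, the median over the 102 kept its size of 0.73, against 0.28 over all tested regions. That fit leaves 1 sample in Late, so its calls are not read.

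In Early against Basal 37 of the 102 tested regions rose and 0 fell, while 10.9% of all tested regions rose and 1.44% fell. The voom test on recovered reads also gave 37 and 0, against 14.3% and 1.47% of all, and 0 had an unadjusted p under 0.05 on the lower side by either test. The rises were 0.71 to 1.52, and the median over the 102 was 0.60, against 0.23 over all. Without the filter 35 of 134 rose and 0 fell, against 8.93% and 1.17% of all regions. Of the 134, 58 were higher in every Early than in every Basal library and 0 were lower, against 17.1% and 3.53% of all regions, and 119 had the higher mean in Early, with a median ratio of 1.85 against 1.26 over all regions. Scaled by the median of ratios, 30 rose and 0 fell, against 8.18% and 6.85% of all, and with quantile normalization 26 and 0, against 6.59% and 5.6%. The count moved with single libraries, and the share over all regions moved with it. Without Early 2 (27.8% of its reads in regions) 0 passed, against 0.447% higher and 0.265% lower of all, and 38 had an unadjusted p under 0.05. The median over the 102 was then 0.42, against 0.073 over all, with 91 of the 102 above 0. Without Early 1, 55 were higher and 1 lower, against 24.8% and 1.89% of all, and without Basal 3, 22 and 0, against 4.1% and 0.632%. With the in-region read share as a covariate 19 rose and 0 fell, against 3.7% and 2.89% of all. The window difference of 0.41 passed the threshold without any single library, between 0.36 and 0.46.

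In Reactivated against Late no region of the cluster passed in the limma fit, where 0.0256% of all tested regions were called higher and 0.205% lower. At an unadjusted p under 0.05, 16 of the 102 were lower and 0 higher by limma. The voom test on recovered reads called 0, against 0.0308% of all tested regions higher and 0.131% lower. The median was -0.20, against 0.088 over all tested regions. Of the 134, 105 had the lower mean in Reactivated, 37 were lower in every Reactivated library than in every Late library and 2 were higher, against 6.88% and 12.4% of all regions. The median ratio of means was 0.818, against 1.08 over all regions. Without the filter 0 regions rose and 2 fell, against 0.0319% and 0.303% of all, and both are low regions named here after their values were seen. At chr2:85886932-85887344 the values were 0.431, 0.268 and 0.179 RPKM in Reactivated libraries and 1.10, 1.26, 1.13 and 1.19 RPKM in Late libraries (log2 difference -1.08 ± 0.22 SE, adjusted p = 0.0265, limma). At chr2:85915264-85915801 they were 0.166, 0.446 and 0.583 RPKM in Reactivated libraries and 1.80, 1.29, 1.42 and 1.23 RPKM in Late libraries (-1.13 ± 0.23, adjusted p = 0.0297, limma). The groups were far apart at both, which lie within 30 kb of each other.

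**Figure D4:**
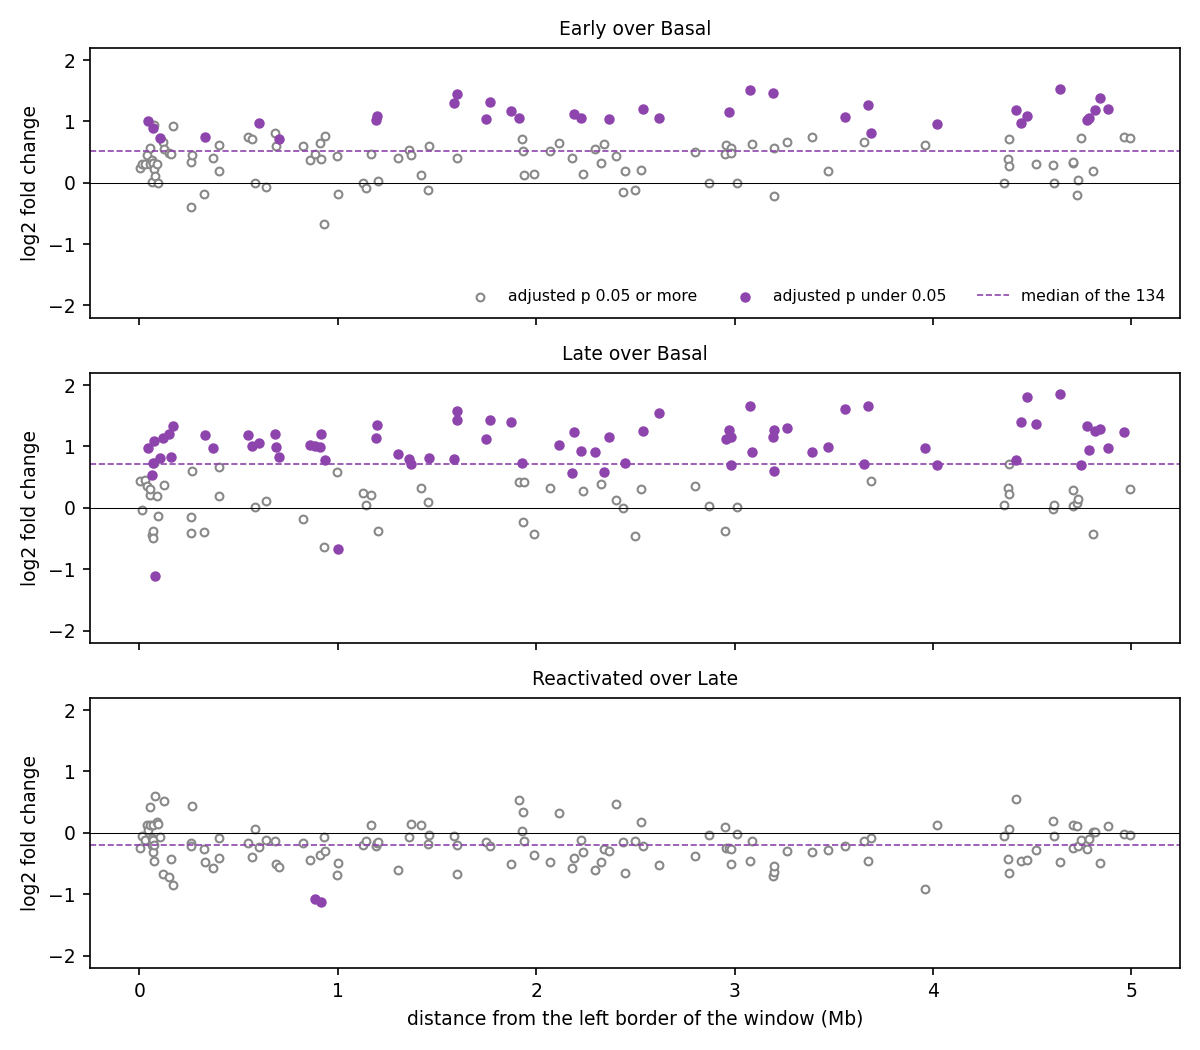
Log2 fold change of each of the 134 regions, fitted without a filter on low values, against its distance from the left border of the window. Filled points have an adjusted p under 0.05 and the dashed line is the median of the 134, which is 0.52 for Early over Basal, 0.72 for Late over Basal and -0.20 for Reactivated over Late.

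Reactivated against Basal gave 40 higher and 2 lower of the 102, against 24.3% and 4.78% of all tested regions, with a median of 0.49 in the cluster and 0.39 over all, so the cluster stood nearer to the genome than in Late. Here too the split depended on the scaling. With values scaled by the median of ratios it was 21 higher and 6 lower, against 8.92% and 10.7% of all, with quantile normalization 17 and 5, against 8.07% and 8.5%, and with the in-region read share as a covariate 0 and 0, when 0% of all regions passed. Leaving out Reactivated 3 left 13 higher and 1 lower, against 9.23% and 1.85% of all, and leaving out Basal 3 left 24 and 1, against 12.7% and 3.25%. Of the 134, 54 were higher in every Reactivated than in every Basal library and 4 lower, against 33.3% and 5.15% of all regions. In Late against Early 0 regions passed in either direction by limma or voom (background 0.31% higher and 0.103% lower), with 5 higher and 10 lower at an unadjusted p under 0.05 by limma. Of the 134, 19 were higher in every Late than in every Early library and 5 lower, against 7.32% and 4.28% of all regions. In Reactivated against Early 0 were higher and 1 lower (background 0.944% and 0.417%), and 1 of the 134 was higher and 12 were lower without overlap, against 10.4% and 5.98% of all regions. The called region, chr2:85824116-85824555, had 0.567, 0.378 and 0.630 RPKM in Reactivated and 1.51, 1.30 and 1.60 RPKM in Early libraries (-0.95 ± 0.24, adjusted p = 0.0495, limma), and its call was lost in 19 of 23 alternatives.

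The first 0.5 Mb of the window was its densest and highest stretch. It held 31 of the 134 regions and 5 of the 6 with the highest mean. Its median RPKM was 1.35 ± 0.026 in Reactivated, 1.70 ± 0.18 in Late, 1.75 ± 0.57 in Early and 1.21 ± 0.24 in Basal. The remaining 103 regions had 0.963 ± 0.15 in Reactivated, 1.27 ± 0.094 in Late, 1.18 ± 0.42 in Early and 0.474 ± 0.058 in Basal (SD over libraries of the median over regions). In Late against Basal 11 of the 29 tested regions of the first 0.5 Mb rose, and 49 of the 73 of the remainder. Over all tested regions 23.9% rose. In Early against Basal 5 of 29 and 32 of 73 rose, against 10.9% of all. The first stretch thus stood nearer to the share over all regions than the remainder did. The median log2 difference of Late against Basal, fitted without a filter, was 0.44 over the first 0.5 Mb and 0.78 over the remainder. Whether the first stretch belongs to the block of receptor genes in mm9 was not analysed here. In the core from 86 to 89 Mb, 31 of 45 tested regions rose and 1 fell in Late against Basal, against 23.9% and 6.03% of all. In Early against Basal 19 of the 45 rose and 0 fell, against 10.9% and 1.44% of all. The window difference was larger there, 0.52 for Late and 0.47 for Early against Basal (adjusted p = 0.000642 and 0.000889, limma). In each of the 9 later stretches of 0.5 Mb the Basal median lay between 0.257 and 0.639 RPKM, and the Late median between 1.12 and 1.62 RPKM. The 32 regions below the filter were also lowest in Basal, with medians of 0.377 RPKM in Reactivated, 0.629 in Late, 0.370 in Early and 0.172 in Basal.

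The 6 regions with the highest mean were open in every group. The highest, chr2:85124573-85125808, had 4.98, 4.79 and 5.78 RPKM in Reactivated, 3.51, 3.39, 3.44 and 3.58 RPKM in Late, 2.54, 6.95 and 3.58 RPKM in Early and 3.49, 2.61, 1.76 and 2.75 RPKM in Basal libraries. Here Reactivated, not Late, was the upper group beside Early 2. The second, chr2:85265948-85266837, had 3.16, 4.89 and 6.30 RPKM in Reactivated, 3.39, 3.27, 3.54 and 3.02 RPKM in Late, 1.14, 7.23 and 2.65 RPKM in Early and 2.51, 2.34, 1.33 and 1.99 RPKM in Basal libraries. The regions at chr2:85053578-85054720, chr2:85086481-85087241 and chr2:85037623-85039249 averaged 2.64 to 3.12 RPKM over all libraries, with 76 to 353 reads in each library. None of these 5, all in the first 0.5 Mb, passed the threshold in Late against Basal or Early against Basal. In Reactivated against Basal the first 2 rose, by 0.88 ± 0.29 (adjusted p = 0.0292) and 1.04 ± 0.36 (adjusted p = 0.0365), by limma, without overlap.

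The remaining one of the 6, chr2:86601246-86601951, lies further inside. It had 3.05, 2.51 and 3.58 RPKM in Reactivated, 3.36, 3.51, 4.10 and 3.23 RPKM in Late, 1.99, 7.45 and 3.03 RPKM in Early and 1.26, 0.941, 0.732 and 1.15 RPKM in Basal libraries. All 10 other libraries lay above all 4 Basal libraries, with 28 to 48 reads in Basal libraries and 76 to 285 in the others. It rose in Reactivated against Basal by 1.23 ± 0.30 and in Late against Basal by 1.42 ± 0.28 (SE; adjusted p = 0.00818 and 0.00138, limma). In Early against Basal it rose by 1.45 ± 0.30 (adjusted p = 0.00810, limma), with an adjusted p of 0.0513 without Early 2.

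The largest rises were from a few reads in Basal. chr2:89639905-89640044, 139 bases long, had 1.28, 1.46 and 2.39 RPKM in Reactivated, 1.86, 2.65, 2.88 and 2.76 RPKM in Late, 1.06, 3.45 and 1.72 RPKM in Early and 0.795, 0.265, 0.133 and 0.265 RPKM in Basal libraries. Behind these were 10 to 18 reads in Reactivated, 12 to 19 in Late, 8 to 26 in Early and 1 to 6 in Basal libraries. It had the largest rise in both comparisons, 1.85 ± 0.27 in Late against Basal (adjusted p = 0.000295) and 1.52 ± 0.29 in Early against Basal (adjusted p = 0.00700), by limma. Next in Late against Basal was chr2:89475030-89475516, with 0.512, 1.74 and 1.52 RPKM in Reactivated, 2.22, 1.34, 1.69 and 1.88 RPKM in Late, 0.645, 1.29 and 0.796 RPKM in Early and 0.038, 0.265, 0.303 and 0.038 RPKM in Basal libraries (1.80 ± 0.25, adjusted p = 0.000209, limma). Of its Basal libraries, 2 stood at 1 read, the lowest value in the table, which may stand for no reads. Late was the highest group here, and Reactivated and Early overlapped.

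chr2:88079038-88079297 had 0.755, 0.996 and 2.06 RPKM in Reactivated, 2.00, 1.42, 2.04 and 1.89 RPKM in Late, 1.42, 3.20 and 0.783 RPKM in Early and 0.142, 0.356, 0.427 and 0.071 RPKM in Basal libraries. It rose by 1.66 ± 0.27 in Late and 1.51 ± 0.30 in Early against Basal (adjusted p = 0.000522 and 0.00723, limma). chr2:88670735-88671157 had 1.09, 0.699 and 1.14 RPKM in Reactivated, 1.63, 1.54, 1.55 and 1.36 RPKM in Late, 0.611, 2.18 and 0.699 RPKM in Early and 0.044, 0.262, 0.087 and 0.175 RPKM in Basal libraries. All Reactivated libraries lay below all Late and above all Basal libraries there. The rise in Late against Basal was 1.67 ± 0.24 (adjusted p = 0.000271, limma). The other named rises in Late against Basal were 1.61 at chr2:88558682-88558915 and 1.57 at chr2:86598493-86598686. Those in Early against Basal were 1.46 at chr2:88191384-88191755, 1.38 at chr2:89841153-89841503 and 1.32 at chr2:86766651-86767148, with adjusted p of 0.00846, 0.0143 and 0.0121 (limma). Each of these 5 had 1 to 23 reads in Basal libraries, and the last 3 each had their highest value in Early 2, at 4.27, 5.37 and 3.19 RPKM.

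In Reactivated against Basal the named rises were 1.40 ± 0.32 at chr2:88558682-88558915, 1.37 ± 0.29 at chr2:89639905-89640044 and 1.35 ± 0.27 at chr2:89475030-89475516 (adjusted p = 0.00563, 0.00454 and 0.00312, limma). The first had 1.37, 1.34 and 2.14 RPKM in Reactivated and 0.395, 0.316, 0.316 and 0.158 RPKM in Basal libraries, without overlap. All 3 calls were lost with the in-region read share as a covariate.

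**Figure D5:**
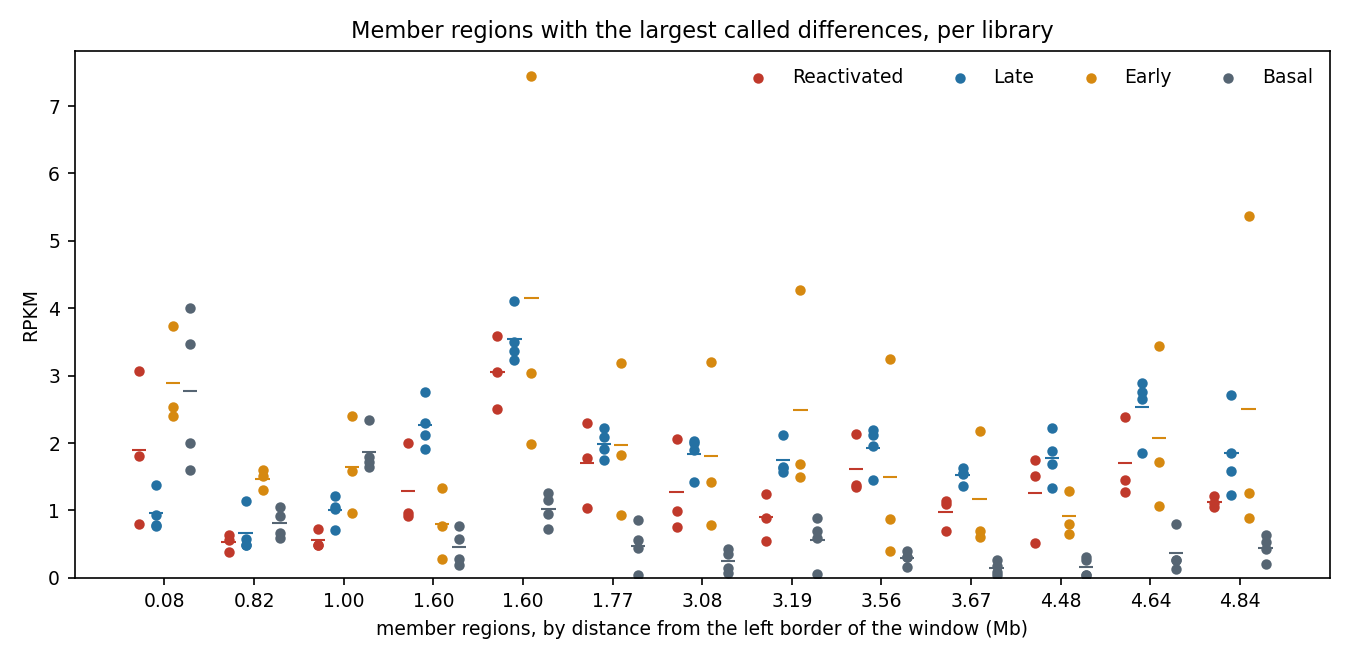
RPKM per library of the regions with the largest called differences, ordered by distance from the left border of the window, with group means as short lines. The Basal mean is the lowest at all but the 3 leftmost regions, and 2 Early 2 values, 7.45 and 5.37 RPKM, stand above all others.

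A few regions went the other way. chr2:85078372-85078510, 138 bases long and in the first 0.5 Mb, had 1.80, 3.07 and 0.801 RPKM in Reactivated, 0.936, 0.785, 1.38 and 0.771 RPKM in Late, 2.54, 2.40 and 3.74 RPKM in Early and 3.47, 2.00, 1.60 and 4.01 RPKM in Basal libraries. It fell by 1.10 on the log2 scale in Late against Basal (SE 0.29, adjusted p = 0.00816, limma). chr2:86002403-86002671 had 0.730, 0.481 and 0.481 RPKM in Reactivated, 1.05, 1.21, 1.02 and 0.715 RPKM in Late, 2.41, 0.963 and 1.58 RPKM in Early and 1.79, 1.65, 2.34 and 1.72 RPKM in Basal libraries. It fell by 0.67 in Late against Basal (SE 0.22, adjusted p = 0.0251) and by 1.16 in Reactivated against Basal (SE 0.23, adjusted p = 0.00358), by limma, without overlap in either. Its call in Late against Basal was lost in 6 of 23 alternatives. The second region lower in Reactivated than in Basal, named after its values were seen, was chr2:86990332-86990573, with 0.811, 0.229 and 0.459 RPKM in Reactivated and 0.765, 1.07, 1.22 and 1.76 RPKM in Basal libraries, which overlap (-0.78 ± 0.27, adjusted p = 0.0359, limma).

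At the borders of the window the 3 leftmost regions, chr2:85002345-85002623, chr2:85010302-85010904 and chr2:85027716-85028168, averaged 1.20 to 1.64 RPKM in Reactivated, 1.29 to 2.04 in Late, 1.48 to 1.79 in Early and 1.09 to 1.36 in Basal. None of them passed the threshold in any comparison with Basal. The 3 rightmost, chr2:89880824-89881124, chr2:89964685-89964882 and chr2:89993949-89994447, averaged 1.23 to 1.30 RPKM in Reactivated, 1.24 to 1.32 in Late, 0.717 to 1.96 in Early and 0.210 to 0.962 in Basal. The first of these rose in Early against Basal (1.20 ± 0.33, adjusted p = 0.0241, limma) and in Late against Basal (0.98 ± 0.31, adjusted p = 0.0202, limma). Its Late and Basal libraries overlapped, with 0.289 RPKM in Late 2 and 0.123 to 0.430 RPKM in Basal libraries. The second rose in Late against Basal (1.24 ± 0.29, adjusted p = 0.00423, limma). Both regions also rose in Reactivated against Basal, by 1.09 ± 0.33 (adjusted p = 0.0206) and 1.23 ± 0.32 (adjusted p = 0.0101), by limma.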

How the data were processed

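ATAC-seq was measured in 14 libraries of sorted hippocampal neuronal nuclei. The file deposited by the authors holds RPKM values of 191271 regions on the mm9 build. Bowtie2 2.0, SAMtools, MACS2, DiffBind and DESeq2 are named per the submitters' processing notes, with no role given. How regions were called (per library or pooled), duplicate removal and any shift of cut positions are not given in the sources used here. These steps set region borders and the reads at low regions. Coordinates are printed as deposited. RPKM times length gave whole reads (100% within 0.01), with a lowest value of 1 read, which may stand for none.

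Values were analysed as log2(RPKM + 0.5), without the 10% of regions of lowest mean, in 1 limma fit (limma 3.58.1, R 4.3.3; trend, robust) of all libraries, with 6 2-sided comparisons and Benjamini-Hochberg adjustment over all tested regions, threshold 0.05. Windows of 5 Mb were fitted likewise. Exact permutation tests went through every split of the libraries, and Wilson intervals used scipy 1.17.1. Fits were tested on simulated data. The members, the named-region rule (the 6 highest by mean, up to 6 or 3 largest called rises and falls without overlap per comparison, 3 regions at each border, and the windows nearest in number of regions and in level) and the lists were chosen with earlier results of these data known. Alternatives were another pseudocount, filters, scalings, a covariate, a replicate block, a narrower window, voom on recovered reads and leaving out libraries. The planned edgeR and DESeq2 fits were not run, and voom on the recovered reads was added instead. RefSeq gene order and promoters are of GRCm38.p6.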

Additional observations from a re-analysis of the deposited data

Results flagged for a closer look

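In 2 of the 56 groups of 4 library values looked at, 1 library lay far from the other 3 by Dixon's ratio, which chance gives in about 1 of 20 groups. At chr2:85824116-85824555 Late 2 had 1.14 RPKM and the next highest Late library 0.577 RPKM. At chr2:88191384-88191755 Late 4 had 2.12 RPKM and the next highest Late library 1.65 RPKM.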

How the results depend on the processing

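The window differences of Early and Late against Basal kept their direction in all alternatives and leave-one-out fits. They ranged from 0.36 to 0.62 and from 0.39 to 0.72. No call was lost, leaving aside the fit with Late averaged to 1 sample, whose calls are not read. Reactivated against Late passed the threshold with no filter (-0.35) and with summed reads (-0.41), Reactivated against Basal without centring (0.45), and Reactivated against Early missed it without centring (-0.17). Without 1 library in turn, the differences ranged from 0.36 to 0.46 (Early against Basal), 0.39 to 0.49 (Late against Basal), -0.38 to -0.22 (Reactivated against Late), 0.064 to 0.22 (Reactivated against Basal) and -0.35 to -0.19 (Reactivated against Early). Reactivated against Basal passed without Reactivated 1 (adjusted p = 0.0329). Late against Early ranged from -0.0099 to 0.059 and was below 0 without Early 3, far inside its error.

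Counts of called regions moved as follows, set beside the percentages of all tested regions called higher and then lower. The core is read from the main fit. Early against Basal (37, against 10.9% and 1.44%) gave 19 with the share covariate, against 3.7% and 2.89%, and 19 in the core. Without 1 library it ranged from 0 (without Early 2, against 0.447% and 0.265%) to 56 (without Early 1, against 24.8% and 1.89%). Late against Basal (62, against 23.9% and 6.03%) gave 32 in the core, which holds 45 of the 102 regions. Without 1 library it ranged from 48 (without Basal 3, against 15.7% and 4.67%) to 66 (without Early 2, against 30.9% and 7.46%). Reactivated against Basal (42, against 24.3% and 4.78%) gave 27 after median-of-ratios scaling, against 8.92% and 10.7%, and 23 in the core. It gave 22 after quantile normalization, against 8.07% and 8.5%, and 0 with the covariate, against 0% in both directions. Without 1 library it ranged from 14 (without Reactivated 3, against 9.23% and 1.85%) to 51 (without Early 2, against 34.7% and 6.02%). Reactivated against Late (0, against 0.0256% and 0.205%) gave 2 without the filter, against 0.0319% and 0.303%, and 0 without any 1 library. It gave 1 after median-of-ratios scaling (0.6% and 0.399% of all) or quantile normalization (0.0593% and 0.332%). It gave 3 after median-of-ratios scaling with no filter (0.566% and 0.504%) and 5 with the covariate (0.261% and 0.676%). Late against Early (0, against 0.31% and 0.103%) gave 1 after median-of-ratios scaling, with the filter (0.491% and 0.265%) or without (0.564% and 0.236%). It gave 2 after quantile normalization, against 1.55% and 0.709%, and 3 with the covariate, against 2.7% and 1.3%. Without 1 library it ranged from 0 to 11, with 11 without Early 2, against 5% and 1.34%. Reactivated against Early (1, against 0.944% and 0.417%) gave 2 after median-of-ratios scaling (1.88% and 0.948%) and 2 after quantile normalization (1.86% and 0.717%). It gave 3 with the covariate, against 1.65% and 0.91%, and 0 in the core. It gave 0 without the filter (0.648% and 0.257%), under the replicate block (0.159% and 0.119%) and by voom (2.43% and 0.293%). Without 1 library it ranged from 0 to 9, with 9 without Early 2, against 14.5% and 2.83%. The causes were not tested, except that the core holds fewer regions. Of the 19 named differences, none changed sign.

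Replicate numbers did not pair the libraries (19 same-number pairs, r of -0.260 to 0.0687 between deviations from group means, 0 over 0.1). Under a replicate block, 32 regions of the cluster were called in Early against Basal, when 6.09% of all were called higher and 0.688% lower. Late against Basal gave 58 (20.8% and 5.37% of all), and Reactivated against Basal gave 35 (17.2% and 3.65%). The window differences of Early and Late against Basal were then 0.40 and 0.44. The edgeR and DESeq2 alternatives were not run. The voom, chr2-centred, window covariate, window averaged-Late and scaling-without-filter alternatives were chosen after seeing the data. Depth limits the low regions: 27 of 134 stood at 1 read somewhere, and 74 had a mean of at least 20 reads.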
